A study of Saccharomyces cerevisiae with 12 samples.

Results

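The small subunit of the cytosolic ribosome of Saccharomyces cerevisiae is built from proteins encoded by the RPS genes. The 56 RPS genes from RPS0A to RPS31 were taken by systematic name from the 7126 genes of the deposited count table, and all 56 were found and matched to the annotation by name and symbol. They encode 24 proteins through a pair of gene copies each, named A and B, and 8 proteins, RPS15 and RPS31 among them, through a single copy. RNA was sequenced from glucose-limited chemostats, in SD-2×SCAA medium, of 3 strains that secrete α-amylase, at a dilution rate of either 0.1/h or 0.2/h, with 2 biological replicates in each of the 6 groups. In a chemostat at steady state, the dilution rate sets the specific growth rate. All strains descend from the haploid host CEN.PK 530-1C (MATa, URA3, HIS3, LEU2, TRP1, SUC2, MAL2-8c), in which most of TPI1 is replaced by a loxP-flanked KanMX4 cassette, and carry the plasmid pAlphaAmyCPOT, which expresses α-amylase from the TPI1 promoter and is kept by the POT1 gene of Schizosaccharomyces pombe. AAC is the original strain, MH34 was derived from it by UV mutagenesis and screening, and B184 was derived in turn from MH34, so each evolved strain is 1 isolate. According to the methods, the cultures of MH34 and B184 that were run at 0.1/h received ethanol against oscillations, while none is named for AAC. Where MH34 or B184 is compared with AAC at 0.1/h, the strain and this addition therefore cannot be told apart. MH34 and B184 both received it, so it does not set these strains apart from each other. Within MH34 or B184, none is named at 0.2/h, so the rate and the addition cannot be told apart there.

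Ribosomal protein genes are a classic growth-regulated regulon of yeast. Their promoters are commonly bound by Rap1, which recruits Fhl1 and its coactivator Ifh1, and nutrient signals through TORC1, protein kinase A, and the activator Sfp1 set their transcription, so that their mRNA makes up a larger part of the transcriptome in fast-growing cells. Most of the duplicated genes descend from the whole-genome duplication, and the copies encode nearly the same protein. The small subunit binds mRNA and initiation factors and decodes the message, with Rps3 at the mRNA entry, Rps14, Rps26, and Rps28 near the mRNA exit, and Rps31 made as a fusion to ubiquitin.

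The libraries held from 6040221 to 10785960 counts, of which between 99402 and 457259 fell on RPS genes. The lowest count of an RPS gene in any library was 136, for RPS28B, and all 56 passed the filter on low counts, as did 6044 genes in total. All replicates were farther apart than counting noise, by a chi-square over its degrees of freedom of 1.81 (B184 at 0.2/h) to 28.7 (AAC at 0.1/h). Of the markers of the labelled mating type, all 6 a-cell genes were detected, and their summed level ranged from 1672 to 4160 CPM (counts relative to the TMM-scaled library size). The α-cell markers STE3 and SAG1 together ranged from 75.7 to 129 CPM and the 5 sporulation markers from 64.6 to 153 CPM, and none of these genes was at 0. The α-cell markers moved with strain, since both were lower in MH34 and B184 than in AAC in 3 of the 4 comparisons and 1 of them in the other, while up to 4 a-cell genes were higher. Of the 5 sporulation markers, between 1 and 3 were higher and 1 or 2 lower in each of these comparisons. The part of all these markers in the RPS results was not tested. On TPI1, 132 to 637 counts remained per library. Levels are relative to all counted mRNA, so a change in fewer cells and a smaller change in each cell cannot be told apart.

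The copies of a pair are alike in sequence, which bears on how well their counts are separated. The coding identity of the copies ranged from 84.3% to 99.2%, and 9 of the 24 pairs encode identical proteins. RPS4, RPS6, and RPS24 are among the pairs that share runs of 100 identical coding bases, so counts of their copies are the least certain, and the pairs described in detail for RPS14, RPS25, RPS28, RPS27, RPS21, and RPS7 share none. For the 3 pairs whose ratio moved most between groups, the coding stretch of 60 bases with most differences is shown from each copy, from RefSeq's R64 genome and written 5′ to 3′ along the gene, with capitals at the bases that differ. RPS14A (YCR031C) lies on chromosome III (177500 to 178220, minus strand, 2 exons) and RPS14B (YJL191W) on chromosome X (73787 to 74611, plus strand, 2 exons), and their windows are at chrIII:177833-177892 and chrX:74219-74278.
RPS14A: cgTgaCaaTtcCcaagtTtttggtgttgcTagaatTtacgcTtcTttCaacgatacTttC
RPS14B: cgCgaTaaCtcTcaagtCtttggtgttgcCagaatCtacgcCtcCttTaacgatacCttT
RPS25A (YGR027C) is an intronless gene of chromosome VII and RPS25B (YLR333C) one of chromosome XII, with windows at chrVII:534231-534290 and chrXII:795672-795731.
RPS25A: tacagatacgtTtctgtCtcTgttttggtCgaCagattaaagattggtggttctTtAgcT
RPS25B: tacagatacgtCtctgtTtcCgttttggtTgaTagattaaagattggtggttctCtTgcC
RPS28A (YOR167C) lies on chromosome XV and RPS28B (YLR264W) on chromosome XII, both without introns, and their windows, at chrXV:648948-649007 and chrXII:673131-673190, begin at the start codon.
RPS28A: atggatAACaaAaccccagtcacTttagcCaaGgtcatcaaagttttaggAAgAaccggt
RPS28B: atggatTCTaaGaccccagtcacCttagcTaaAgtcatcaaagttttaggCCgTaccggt
The copies differ at 12 of 60 bases in the RPS14 window, 8 in that of RPS25, and 10 in that of RPS28. Between whole coding sequences, identity was 92.1% for RPS14, 92.4% for RPS25, and 88.2% for RPS28.

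The family as a whole was lowest at 0.1/h in AAC and B184 and high in every other group. RPS genes took 1.55% ± 0.27 of all counts in AAC at 0.1/h, 1.55% ± 0.04 in B184 at 0.1/h, and 3.09% ± 0.09 in MH34 at 0.1/h (SD, n = 2). At 0.2/h the shares were 3.85% ± 0.26 in AAC, 4.3% ± 0.17 for MH34, and 4.24% ± 0.01 for B184. The AAC libraries at 0.1/h held 1.74% and 1.36%, those of B184 1.58% and 1.53%, those of MH34 3.03% and 3.15%, and the 6 libraries at 0.2/h between 3.67% and 4.42%, so the AAC and B184 libraries overlapped at 0.1/h and lay below all others. Per kilobase of coding sequence, the median RPS gene had 499 ± 86.0 FPKM in AAC at 0.1/h, 454 ± 18.9 in B184, and 1107 ± 38.4 in MH34, against 1418 ± 119, 1545 ± 75.1, and 1522 ± 2.01 for AAC, MH34, and B184 at 0.2/h. FPKM is the count per kilobase of coding length, relative to the library's total.

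**Figure D1:**
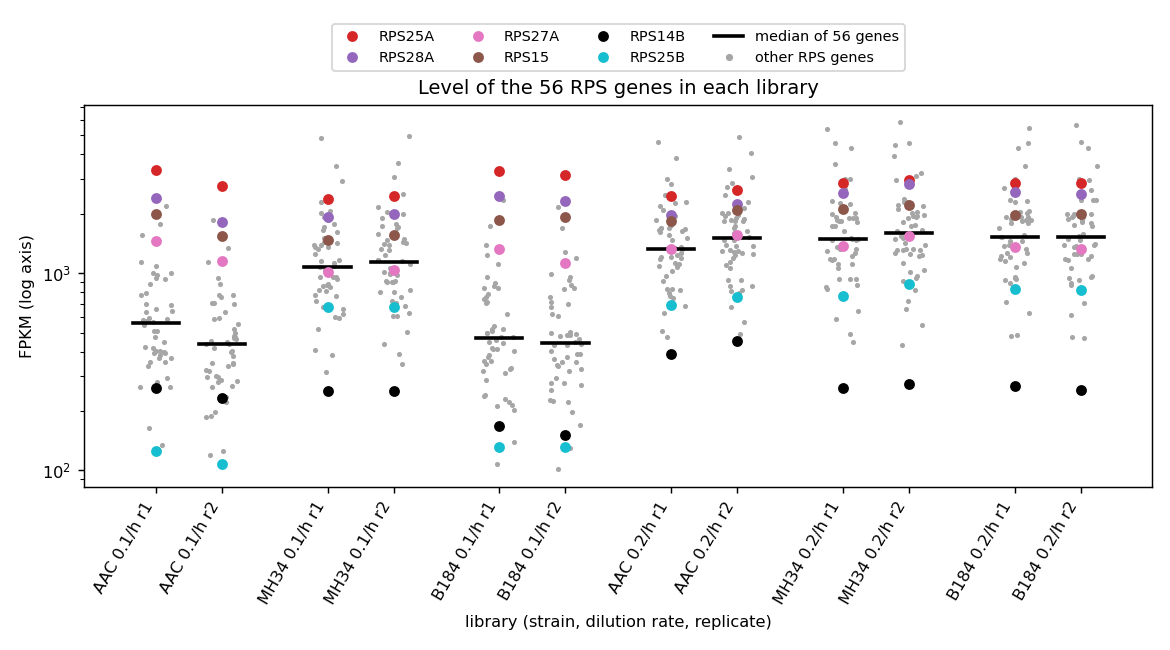
Level of each of the 56 RPS genes (points, FPKM on a log axis) in each of the 12 libraries, with the median of the 56 genes as a black bar and 6 genes in color. The medians in AAC and B184 at 0.1/h lie between 438 and 559 FPKM and those of the other libraries between 1079 and 1598 FPKM, while RPS25A, RPS28A, RPS27A, and RPS15 move less between the rates than the median does in AAC and B184.

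By mean level over the 12 libraries, the highest members were RPS30A with 4187 FPKM, RPS31 with 3041, and RPS25A with 2840, and the lowest were RPS14B with 268, RPS28B with 337, and RPS7B with 403. RPS30A encodes a small protein released from a ubiquitin-like fusion in mammals but made alone in yeast. It had 399 and 351 CPM in AAC and 419 and 392 CPM in B184 at 0.1/h and between 968 and 1087 CPM in the other 8 libraries. RPS31 had 685 and 511 CPM in AAC and 527 and 523 CPM in B184 at 0.1/h, 1393 and 1475 CPM for MH34 at that rate, and between 1922 and 2003 CPM at 0.2/h. In neither gene did the low and the high libraries overlap. The order was not the same in all groups. RPS25A led in AAC and B184 at 0.1/h, with 3059 and 3227 FPKM, and RPS30A led in the other 4 groups, with 4773 to 5617 FPKM. The lowest member was RPS25B in AAC at 0.1/h, with 117 FPKM, RPS28B in B184 at 0.1/h, with 105 FPKM, and RPS14B in the other 4, with 252 to 420 FPKM. The spread between members, as the SD of log2 FPKM over 56 genes, was 0.99 in AAC and 1.08 in B184 at 0.1/h and between 0.72 and 0.83 in the other groups.

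The comparison of the rates asks how the transcripts respond to faster growth in each strain. In AAC, 54 of the 56 RPS genes rose from the lower rate to the higher one and none fell, with a median log2 fold change of 1.67 (edgeR's quasi-likelihood test, Benjamini-Hochberg adjusted p under 0.05, here and in all comparisons of groups). Of all 6044 genes, 32.7% rose and 35.5% fell in this comparison, and the median gene moved by −0.03. In B184, 52 RPS genes rose and none fell, with a median of 1.71, where 33.9% of all genes rose and 32.7% fell. In MH34, 44 rose and none fell, with a median of only 0.40, where 13.5% of all genes rose and 13.3% fell. In AAC 46 members and in B184 49 members rose more than 2-fold, and in MH34 none did, without a count over all genes to set beside these. The rate comparisons share no libraries, and 41 members rose in all 3 strains. Of all genes, no more than the 13.5% that rose in MH34 can have done so. The count in MH34 rested on its libraries, since 4 members were called without replicate 1 at 0.1/h, 15 without replicate 2 at 0.1/h, and 14 without replicate 2 at 0.2/h, while the median remained between 0.38 and 0.43.

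The largest rises with rate were those of RPS24A and RPS25B in AAC and of RPS24A and RPS21A in B184. RPS24A encodes a protein of the subunit's body needed for early processing of the precursor rRNA, and its transcript had 114 and 94.0 CPM in AAC and 91.5 and 86.6 CPM in B184 at 0.1/h, against 670 and 702 CPM in AAC and 693 and 711 CPM in B184 at 0.2/h. The rates were far apart in both strains, and since RPS24A shares an identical stretch with RPS24B, the split of their counts is less certain than for other pairs. In MH34 it had 493 and 528 CPM at 0.1/h and 671 and 689 CPM at 0.2/h, a narrower step that also did not overlap. Its log2 fold change was 2.72 ± 0.10 (SE) in AAC (adjusted p = 1.5e-08), 2.98 ± 0.10 in B184 (adjusted p = 7.0e-09), and 0.41 ± 0.09 in MH34 (adjusted p = 0.0097). RPS21A, whose protein is among the smallest of the subunit, rose by 2.95 ± 0.13 in B184, from 52.2 and 42.7 CPM to 370 and 365 CPM (adjusted p = 4.0e-08). In MH34, the members farthest above the family median were RPS26B, with 305 and 344 CPM at 0.1/h and 543 and 578 CPM at 0.2/h, and RPS9B, with 653 and 710 against 1028 and 1082 CPM. Rps26 lines the exit of the mRNA channel and Rps9 its entry. Both rose, by 0.79 ± 0.13 (adjusted p = 0.0019) and 0.63 ± 0.09 (adjusted p = 0.0013).

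**Figure D2:**
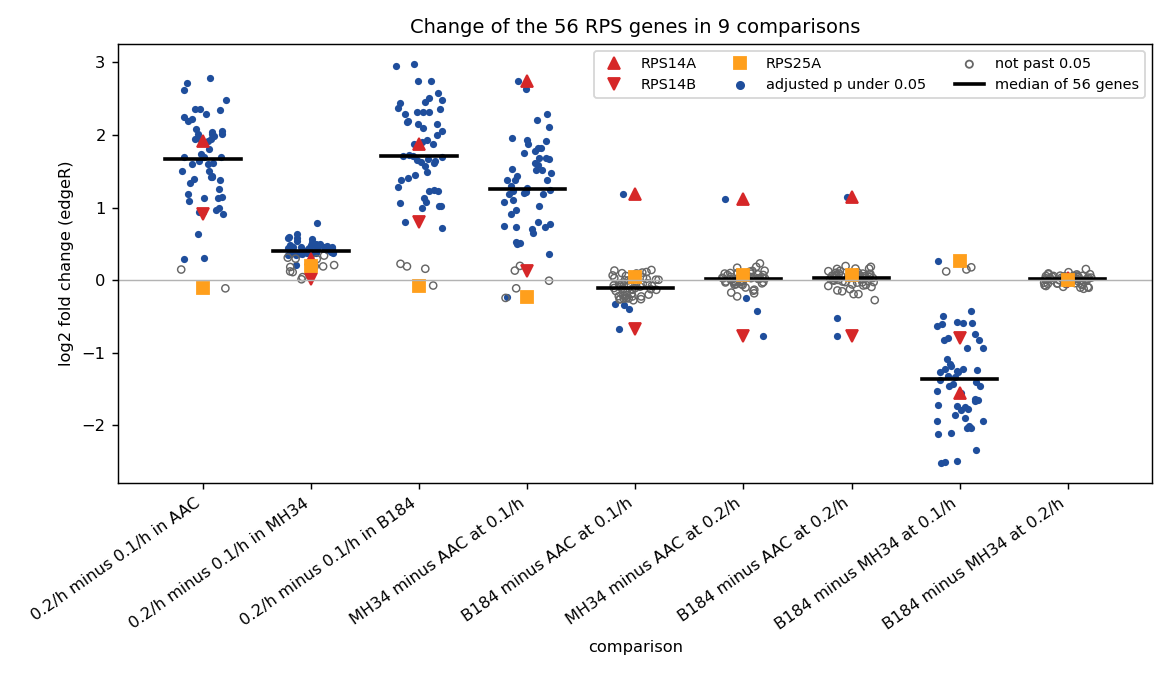
Log2 fold change (edgeR) of each of the 56 RPS genes in 9 comparisons, with filled points past an adjusted p of 0.05, open points not, and the family median as a black bar. The family median is 1.67, 0.40, and 1.71 for the rates in AAC, MH34, and B184, RPS14A stands above all other members in the 4 comparisons with AAC, and RPS14B stands below them in 3 of the 4.

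In AAC and B184, RPS25A, RPS28A, RPS15, and RPS27A moved least with the rate, and they ranked 1, 2, 4, and 7 of 56 by FPKM in both strains at 0.1/h. In MH34, the last 3 of them rose about as much as the family. RPS25A, which encodes a protein near the mRNA exit known for its role in internal ribosome entry, had 1038 and 892 CPM in AAC, 807 and 839 CPM for MH34, and 1003 and 979 CPM for B184 at 0.1/h, and 884 and 902, 942 and 936, and 939 and 945 CPM in the same strains at 0.2/h. Its groups overlapped between the rates in AAC but not in MH34 or B184. It was the only member that rose in no strain, with log2 fold changes of −0.11 ± 0.09 in AAC (adjusted p = 0.30), 0.19 ± 0.09 in MH34 (adjusted p = 0.15), and −0.07 ± 0.09 in B184 (adjusted p = 0.50). In AAC its direction turned to 0.003 without replicate 1 at 0.1/h.

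RPS28A encodes a protein at the mRNA exit site. It had 469 and 365 CPM in AAC and 469 and 451 CPM in B184 at 0.1/h, against 442 and 481 CPM and 531 and 518 CPM at 0.2/h. The rates overlapped in AAC and not in B184, where the step was small. In MH34 it had 406 and 424 CPM at 0.1/h and 527 and 557 CPM at 0.2/h, and rose by 0.39 ± 0.11 (adjusted p = 0.023). The log2 fold changes were 0.15 ± 0.11 in AAC (adjusted p = 0.25) and 0.19 ± 0.11 in B184 (adjusted p = 0.14), and the AAC value turned to −0.02 without replicate 2 at 0.1/h and to −0.002 with library size as the only scaling. RPS15, a single-copy gene whose protein is needed for export of the precursor subunit from the nucleus, had 813 and 649 CPM in AAC and 746 and 784 CPM in B184 at 0.1/h, and 866 and 937 CPM and 851 and 856 CPM at 0.2/h. Its level was thus higher at 0.2/h in every replicate of both strains, by small steps. It rose by 0.30 ± 0.11 in AAC (adjusted p = 0.027), with 0.16 ± 0.11 in B184 (adjusted p = 0.22), and in MH34 it rose by 0.44 ± 0.11 (adjusted p = 0.014), from 658 and 694 to 909 and 923 CPM. RPS27A, whose protein binds zinc, had 345 and 281 CPM in AAC at 0.1/h and 361 and 407 CPM at 0.2/h, and rose by 0.29 ± 0.11 (adjusted p = 0.032). It rose by 0.44 ± 0.11 in MH34 (adjusted p = 0.015), from 260.5 and 268 to 344 and 372 CPM, with 0.23 ± 0.11 in B184 (adjusted p = 0.087).

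Across the 56 genes, a higher level at 0.1/h went with a smaller change. The level in AAC at 0.1/h and the log2 fold change with rate in B184, which come from different libraries, had a Pearson r of −0.68 and a Spearman rho of −0.60, and the level in B184 at 0.1/h and the change in AAC had −0.64 and −0.57. Genes are not independent replicates, so these values describe the family only. The 14 members with the highest level in AAC at 0.1/h (820 to 3059 FPKM) had a median log2 fold change of 1.10 in B184, and the 14 with the lowest level (117 to 334 FPKM) one of 2.31. RPS14B departed from this, with 248 FPKM in AAC at 0.1/h and a rise of only 0.81 in B184.

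**Figure D3:**
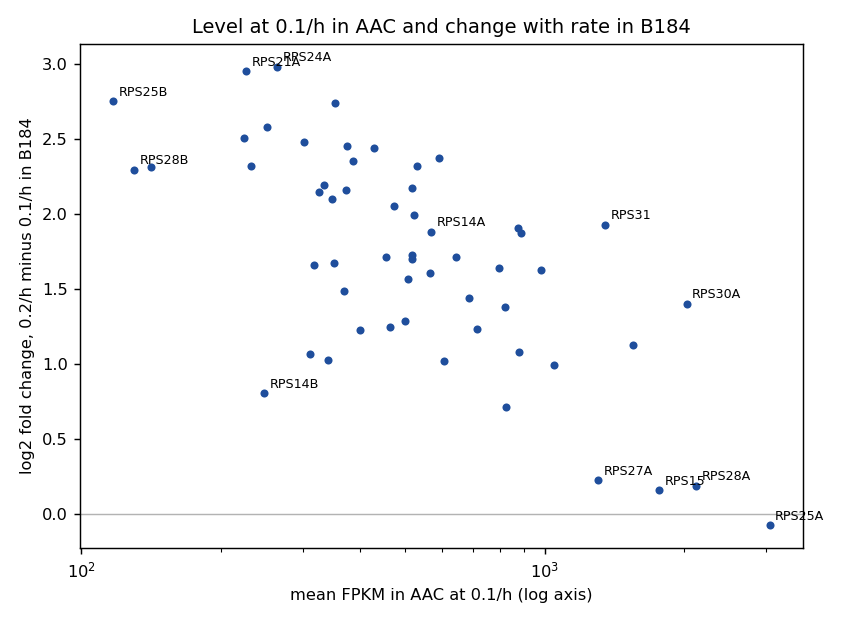
Mean FPKM of each RPS gene in AAC at 0.1/h (log axis) against its log2 fold change between the rates in B184, which uses other libraries. The points fall from RPS25B, RPS21A, and RPS24A at the upper left to RPS25A, at 3059 FPKM and −0.07, at the lower right, with a Pearson r of −0.68 across the 56 genes.

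The comparison of strains at the same rate asks what the rounds of mutagenesis changed. At 0.1/h, 50 RPS genes were higher in MH34 than in AAC and 1 was lower, with a median log2 fold change of 1.25, where 35.5% of all genes were higher and 33.3% lower. In 37 of them the difference was more than 2-fold, again without a count over all genes to set beside it. The members farthest above the family median were RPS14A, with a log2 fold change of 2.75 ± 0.12 (adjusted p = 2.3e-08), and RPS25B, with 2.64 ± 0.08 (adjusted p = 3.6e-09), which are 1.49 and 1.38 above that median. RPS25B had 39.2 and 34.6 CPM in AAC and 230 and 230 CPM in MH34, and the strains were far apart. The 5 members past the threshold in neither direction were RPS14B, RPS27A, RPS7B, RPS15, and RPS28A. RPS25A was the member called lower, by −0.23 ± 0.09 (adjusted p = 0.045), but this call was lost in 5 of the 8 other ways of fitting the data and in 9 of the 12 fits that left out 1 library.

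In B184 at 0.1/h, the family was close to its level in AAC. RPS14A was higher than in AAC, and RPS14B, RPS7B, RPS28B, and RPS29B were lower, the latter 3 by between −0.39 and −0.33, while 16.5% of all genes were higher and 20.4% lower. The family median was −0.10. Replicate 2 of AAC at 0.1/h, with 1.36% of its counts on RPS genes, bore on this count, since without it 1 member was called higher and 28 lower, with a median of −0.24. Without replicate 1, 5 were higher and 2 lower with a median of 0.05, and without replicate 1 of B184 the calls numbered 3 in total.

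Compared with MH34 at 0.1/h, 52 RPS genes were lower and 1 was higher in B184, with a median log2 fold change of −1.35, where 33.6% of all genes were lower and 29.1% higher. The higher one was RPS25A, by 0.27 ± 0.09 (adjusted p = 0.025), a call lost in each of the 4 fits that left out a library of MH34 or B184 at 0.1/h, where 0 members were called higher, and RPS27A, RPS15, and RPS28A passed the threshold in neither direction. This comparison uses the same MH34 libraries as that of MH34 with AAC.

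At 0.2/h the strains were close. In MH34, RPS14A was higher than in AAC and RPS14B, RPS28B, and RPS29A were lower, where 17.4% of all genes were higher and 15.7% lower, and the family median was 0.02. In B184, RPS14A was higher and RPS14B and RPS29A were lower, where 18.4% of all genes were higher and 17.7% lower, and the median was 0.03. Between B184 and MH34 no RPS gene was called by edgeR or by DESeq2, 1 had an unadjusted p under 0.05 in edgeR, and of all genes none was called higher and 0.0165% lower. Without either replicate of AAC at 0.1/h, which enters the shared estimate of spread, 8 members were called between MH34 and AAC and 7 between B184 and AAC at 0.2/h. Rps29, a zinc-binding protein of the head of the subunit, is encoded by RPS29A and RPS29B. At this rate, RPS29A had 424 and 448 CPM in AAC, 329 and 321 CPM for MH34, and 308 and 301 CPM for B184. All 4 libraries of the evolved strains lay below those of AAC. It was lower by −0.42 ± 0.10 in MH34 (adjusted p = 0.0068) and −0.52 ± 0.10 in B184 (adjusted p = 0.0021), while RPS29B differed from AAC by −0.01 ± 0.07 (adjusted p = 0.94) and 0.06 ± 0.07 (adjusted p = 0.57). The members farthest above the median after RPS14A were RPS28A in MH34 (0.23 ± 0.11, adjusted p = 0.12) and RPS10B in B184 (0.20 ± 0.09, adjusted p = 0.12), which passed no threshold.

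The difference between the strain effects at the 2 rates was tested directly. For MH34, it was lower at the higher rate in 50 RPS genes and higher in none, with a median of −1.24, where it was lower in 26.6% of all genes and higher in 26.6%. The 6 members past no threshold were RPS25A, RPS0A, RPS27A, RPS7B, RPS15, and RPS28A. For B184, no RPS gene was called by edgeR and 1 was by DESeq2, 6 had an unadjusted p under 0.05 in edgeR, and the median was 0.11, where 3.26% of all genes were called higher and 2.23% lower. Without replicate 1 or replicate 2 of AAC at 0.1/h, 2 and 8 members were called. All of these tests share the AAC libraries.

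Among the pairs, the ratio of RPS14A to RPS14B ranged most over the groups, by 2.94 on the log2 scale against 2.91 for RPS25, and the copies were farther apart in the evolved strains than in AAC at each rate. Within a single group, the copies of RPS25 and RPS28 differed more, with an A to B ratio of up to 26.0 and 22.8, against 17.4 at most for RPS14. Rps14 is a conserved protein of the subunit's platform, close to the mRNA exit, and in yeast it is known to bind the precursor mRNA of RPS14B and to lower its expression. At 0.1/h, RPS14A had 253 and 201 CPM in AAC, 1491 and 1553 CPM for MH34, and 534 and 502 CPM for B184. At 0.2/h it had 841 and 878 CPM in AAC, 1909 and 1831 CPM for MH34, and 1903 and 1916 CPM for B184. At each rate, every library of an evolved strain was above both AAC libraries. RPS14B at 0.1/h had 104 and 95.0 CPM in AAC, 109 and 110 CPM for MH34, and 65.3 and 60 CPM for B184, and at 0.2/h it had 177 and 197 CPM in AAC, 110 and 110 CPM for MH34, and 113 and 107 CPM for B184. Its levels in the evolved strains were below those in AAC in both strains at 0.2/h and in B184 at 0.1/h. In MH34 at 0.1/h they were slightly above.

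**Figure D4:**
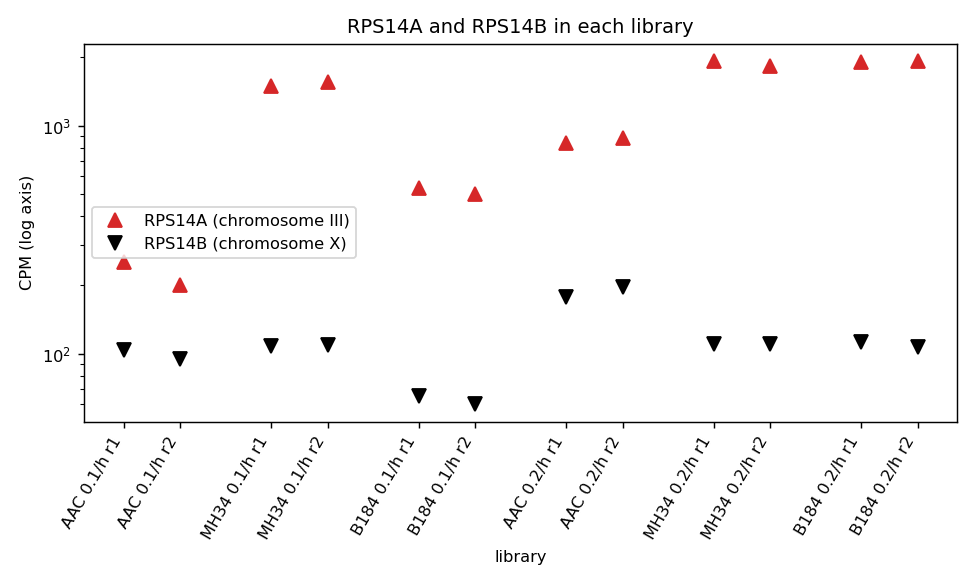
CPM (log axis) of RPS14A (red triangles) and RPS14B (black triangles) in each of the 12 libraries. RPS14A lies between 201 and 253 CPM in AAC at 0.1/h and between 1831 and 1916 CPM in MH34 and B184 at 0.2/h, while RPS14B stays between 60 and 197 CPM and is highest in AAC at 0.2/h.

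RPS14A was higher than in AAC in all 4 comparisons, at 0.1/h by 2.75 ± 0.12 for MH34 and 1.19 ± 0.11 for B184, and at 0.2/h by 1.12 ± 0.11 and 1.15 ± 0.11 (adjusted p from 2.3e-08 to 3.3e-05). RPS14B was lower in B184 at 0.1/h, by −0.67 ± 0.08 (adjusted p = 0.00014), and at 0.2/h in MH34, by −0.76 ± 0.08, and in B184, by −0.77 ± 0.08 (adjusted p = 3.5e-05 and 2.9e-05), and differed by 0.13 ± 0.08 in MH34 at 0.1/h (adjusted p = 0.16). RPS14B thus took 29.2% and 32.1% of the counts of the pair in AAC at 0.1/h, 17.4% and 18.3% in AAC at 0.2/h, and between 5.27% and 10.9% in the 8 libraries of the evolved strains. At 0.1/h the copies summed to 327 ± 43.5 CPM in AAC, 1631 ± 44.5 CPM for MH34, and 581 ± 26.4 CPM for B184, and they summed to 1047 ± 40.1, 1980 ± 54.9, and 2019 ± 4.38 CPM in the same order at 0.2/h (SD, n = 2).

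RPS14A is the only RPS gene on chromosome III. Of the 150 other genes of chromosome III that were tested, 117 and 134 were higher in MH34 and B184 than in AAC at 0.1/h and 132 and 136 at 0.2/h, with medians of 0.82 and 0.89 and of 0.98 and 0.96, against medians of −0.05 to 0.00 on the other chromosomes. RPS14A stood above the median of its chromosome by 1.92 in MH34 at 0.1/h, where 5 of the 150 genes were at or above it, and by 0.30, 0.14, and 0.19 in B184 at 0.1/h, MH34 at 0.2/h, and B184 at 0.2/h. It stood above the family median by 1.49, 1.29, 1.10, and 1.12 in these 4 comparisons. With the rate it moved like the family, by 1.92 ± 0.12 in AAC, 0.26 above the family median, and by 1.88 ± 0.12 in B184, 0.17 above it. The copy number of chromosome III was not measured here.

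The log2 ratio of copy A to copy B was compared in each library, because a ratio within a library does not depend on its depth or scaling. Between replicates, the ratio of a pair differed by a median of 0.05, and by at most 0.45 (RPS16 in B184 at 0.1/h). Over the 6 groups, the group mean of a pair ranged by between 0.24 and 2.94 (RPS14), with a median of 0.89, and 10 of 24 pairs ranged by more than 1. The large-subunit genes are called RPL genes here, with the RPP genes counted among them. Of 35 pairs of RPL genes, 10 ranged by more than 1, with a median of 0.62 and a maximum of 2.84 for RPL15. Copy A had more counts in all 12 libraries in 10 RPS pairs and copy B in 3. In 8 pairs, both libraries of some group favored copy A and both libraries of another copy B. These were RPS4, RPS6, RPS7, RPS22, RPS23, RPS24, RPS27, and RPS29. Of them RPS7, RPS22, RPS24, and RPS27 had one leading copy in AAC and B184 at 0.1/h and the other in the remaining 4 groups. RPS23, whose protein sits in the decoding center, led with copy A in all 3 strains at the low rate, by a log2 ratio of 1.01 and 0.89 in AAC, 1.17 and 1.20 in B184, and only 0.05 and 0.02 in MH34, and with copy B at the high rate, by ratios of −0.13 to −0.09. RPS29 differed by strain at the high rate, where AAC had more of RPS29A and MH34 and B184 more of RPS29B.

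**Figure D5:**
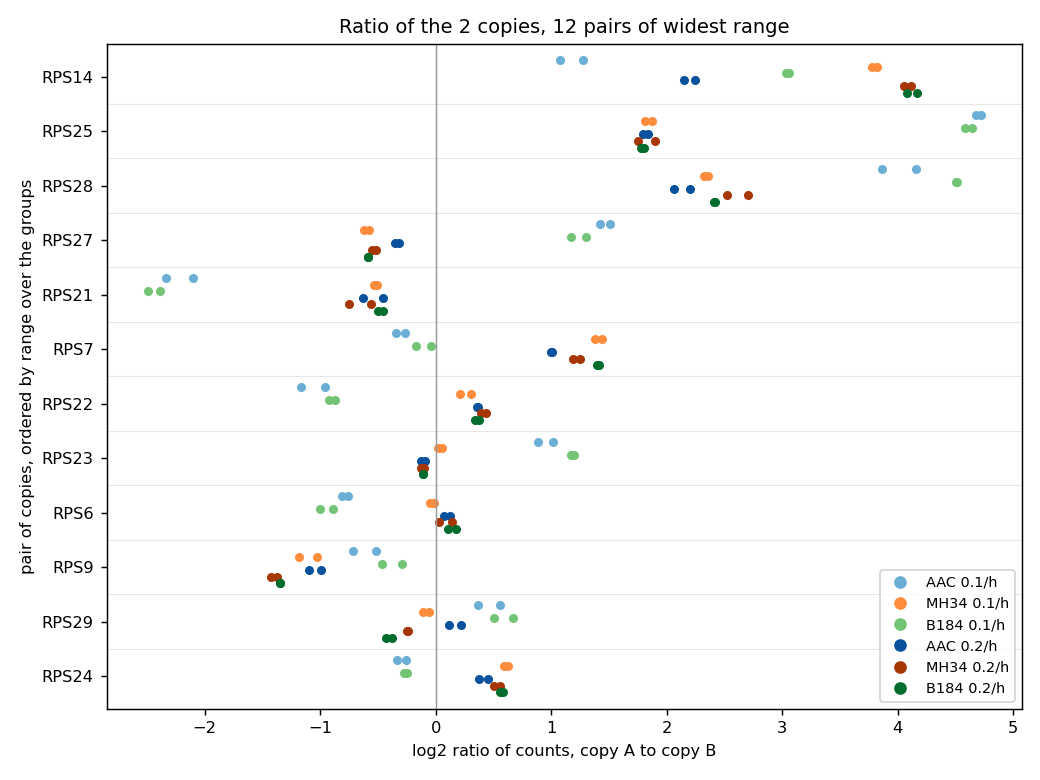
Log2 ratio of the counts of copy A to copy B in each of the 12 libraries (points, colored by group) for the 12 RPS pairs with the widest range of group means, ordered by that range. RPS14 separates AAC from the evolved strains at both rates, whereas RPS25, RPS28, RPS27, RPS21, and RPS7 separate AAC and B184 at 0.1/h from the other 4 groups.

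After RPS14, the widest ranges were those of RPS25, RPS28, RPS27, RPS21, and RPS7, by 2.91, 2.37, 2.06, 1.96, and 1.71. In the first 3, copy A was the flatter one and copy B rose with rate in AAC and B184, as the family did. RPS25B rose by more than the family in AAC, by 2.78 ± 0.08 (adjusted p = 1.0e-08). This was the largest rise of any member there and 1.11 above the family median. The log2 ratio of RPS25 was 4.72 and 4.68 in AAC and 4.64 and 4.58 in B184 at 0.1/h and between 1.75 and 1.90 in the other 8 libraries, with no overlap. RPS25B took 3.69% ± 0.07 of the counts of the pair in AAC at 0.1/h, 3.92% ± 0.11 in B184, and 21.8% ± 0.46 in MH34, and between 22% and 22.4% in the 3 groups at 0.2/h. Because RPS25A dominated, the sum of the copies moved little, from 1002 ± 106 CPM in AAC at 0.1/h to 1147 ± 22.4 CPM at 0.2/h. RPS28 had a similar pattern, with ratios of 4.16 and 3.86 in AAC and 4.51 and 4.51 in B184 at 0.1/h and between 2.07 and 2.70 in the other libraries. RPS28B had 26.2 and 25 CPM in AAC, 20.5 and 19.6 CPM in B184, and 81.1 and 82.8 CPM in MH34 at 0.1/h, and 105 and 105 CPM in AAC at 0.2/h. It was lower than in AAC in B184 at 0.1/h, by −0.35 ± 0.09 (adjusted p = 0.011), and in MH34 at 0.2/h, by −0.25 ± 0.06 (adjusted p = 0.013). In these comparisons 4 and 3 members were called lower, against 1 and 2 with only the groups compared. DESeq2 called 3 and 2 lower, and the fit with a replicate block 4 and 3. Which members the smaller counts hold is not given here.

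RPS27 changed its leading copy. Its log2 ratio was 1.42 and 1.51 in AAC and 1.30 and 1.17 in B184 at 0.1/h, so RPS27A had more counts, and between −0.62 and −0.31 in the other 8 libraries, where RPS27B did. RPS27B rose with rate by 2.09 ± 0.11 in AAC (adjusted p = 1.2e-07), from 129 and 98.7 CPM to 460 and 506 CPM, beside the 0.29 of RPS27A. RPS7, whose protein is a target of the Not4 ubiquitin ligase, did the same with its names exchanged. Its ratio was −0.34 and −0.26 in AAC and −0.04 and −0.17 in B184 at 0.1/h and between 1 and 1.44 elsewhere, as RPS7A rose by 2.25 ± 0.10 (adjusted p = 4.8e-08) and RPS7B by 0.94 ± 0.11 in AAC (adjusted p = 2.5e-05). RPS7B was also lower in B184 than in AAC at 0.1/h, by −0.39 ± 0.12 (adjusted p = 0.021), with 122 and 140 against 194 and 150 CPM, a call lost without replicate 1 of AAC or of B184 at 0.1/h. In RPS21, copy B was ahead throughout, with ratios between −2.49 and −2.10 in AAC and B184 at 0.1/h and between −0.75 and −0.45 elsewhere. RPS21B rose by 0.96 ± 0.10 in AAC (adjusted p = 9.2e-06), beside 2.63 ± 0.13 for RPS21A.

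The ratios were tested with exact two-sided permutation tests over the libraries, without adjustment over the pairs. For the strains, the libraries of MH34 and B184 were pooled as 1 evolved group, although each strain is 1 isolate and B184 derives from MH34. A p-value from this test therefore speaks of these libraries and not of evolved strains in general. The pooled libraries were compared with AAC within each rate, where 225 arrangements allow no p below 0.0044. RPS14 was the only pair at this smallest value (exact p = 0.0044), with a difference of 2.07 in log2 ratio, of 2.24 at 0.1/h and 1.90 at 0.2/h, and every evolved library lay above the AAC libraries of its rate. RPS18 (0.19, exact permutation p = 0.022) and RPS29 (−0.35, exact permutation p = 0.049) were among the others, and 5 of 24 RPS pairs (20.8%) had a p under 0.05, beside 7 of 35 RPL pairs (20%). Without 1 library, between 1 and 4 RPS pairs had a p under 0.05, RPS14 in every case, and leaving out replicate 1 of AAC at 0.1/h left RPS14 alone. For the rates, libraries were compared within each strain, where 216 arrangements allow no p below 0.0093. Of the RPS pairs 16 (66.7%) had a p under 0.05, and 12 were at the smallest value, beside 14 of the RPL pairs (40%). RPS25 had a difference of −1.91 (exact permutation p = 0.028), and RPS28, RPS27, RPS21, and RPS7 had differences of −1.23, −1.19, 1.17, and 0.87 (exact permutation p = 0.056 for each). In MH34 the ratios of these 5 pairs differed little between the rates, as their values at both rates show in the plot of pair ratios.

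In the comparisons given here, medians differed little by intron or by copy. Such medians do not show the differences within single pairs, which are given above. The 36 members with an intron and the 20 without had medians of 1.34 and 1.23 between MH34 and AAC at 0.1/h, 1.66 and 1.67 with rate in AAC, and 1.72 and 1.68 with rate in B184. The 24 A copies, 24 B copies, and 8 single-copy genes had medians of 1.23, 1.29, and 1.32 between MH34 and AAC at 0.1/h. Of the members, only RPS22B overlaps another annotated gene.

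Promoter matches to the Rap1 motif were counted in the 500 bases before the start codon, on either strand, as CCNTACA. They occurred before 32 of the 56 RPS genes (57.1%) and before 15.9% of 6002 nuclear protein-coding genes. Among the pairs that moved apart, a match was before copy B of RPS25 and RPS27 and copy A of RPS14, and not before the other copy, and RPS28 had no match at either copy, while both copies of RPS7 and RPS21 had one. The matches nearest the start codon are shown in 30 bases of the coding strand, with the match in capitals. RPS14A (chrIII:178482-178511) and RPS25B (chrXII:796043-796072) are the members farthest above the family median in MH34 at 0.1/h.
RPS14A: cttacgtgcggTGTACGGacttaataaaca
RPS25B: ttccaagaccaCCATACAgtttagtctgca
RPS27B (chrVIII:149086-149115) and RPS7A (chrXV:505579-505608) are the steeper copies of their pairs.
RPS27B: ttgtatttagcCCATACAttttcacccatg
RPS7A: tcgtagactacTGTATGGcagttgctgcac
RPS21A (chrXI:551425-551454) and RPS21B (chrX:157578-157607) differ in steepness although both have a match.
RPS21A: tacttttaaatCCGTACAttttgaaaattg
RPS21B: actttatacatCCATACAtctccataactt
A match did not go with steepness in every member, since RPS24A, whose rise was the largest in B184, had none and RPS15 had 2. RPS28A had none either, and it has a match to the motif of the general regulatory factor Abf1, searched as TCNCT and ACG with 4 bases of any kind between them, which occurred before 5 RPS genes (8.93%) and 7.65% of all genes. It lies 164 bases before its start codon (chrXV:649151-649180).
RPS28A: agacgcggcCGTCTAGAGTGAccacgcact
The 32 members with a Rap1 match had a median rise with rate of 1.77 in AAC and 1.89 in B184, and the 24 without one of 1.51 and 1.59. A match is a string of letters, and binding was not measured.

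The RPL genes, among which the RPP genes are counted, moved with the RPS genes. Of 82 RPL genes, 80 rose and 1 fell with rate in AAC (median 1.43), 66 rose in MH34 (median 0.40), and 80 rose and 1 fell in B184 (median 1.60), and 73 were higher and 2 lower in MH34 than in AAC at 0.1/h (median 1.06). These counts stand beside the shares of all genes given for the RPS genes in the same comparisons. RPL9A, which encodes a protein at the base of the stalk, and RPL42A had the lowest p-values, with rises in B184 of 3.12 ± 0.09 (adjusted p = 5.8e-09) and 2.80 ± 0.09 (adjusted p = 6.8e-09). The 12 initiation factors that bind the small subunit rose in 9 cases and fell in 1 in AAC (median 0.60), beside 32.7% and 35.5% of all genes, led by SUI3, the β subunit of eIF2, by 1.79 ± 0.09 (adjusted p = 7.6e-08). ASC1, which encodes the RACK1 homolog on the head of the subunit, rose by 1.4 ± 0.11 in AAC (adjusted p = 1.2e-06), and STM1, whose protein clamps idle ribosomes, by 0.74 ± 0.11 (adjusted p = 8.8e-05).

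Of the 12 regulators of ribosomal protein genes, activators and repressors together, most went the other way with rate in AAC and B184. In AAC 11 fell with rate and 1 rose (median −0.46), where 35.5% of all genes fell and 32.7% rose. In B184 10 fell and 1 rose (median −0.54), where 32.7% of all genes fell and 33.9% rose, and in MH34 3 fell (median −0.03), where 13.3% of all genes fell. In MH34 at 0.1/h 9 were lower and 1 was higher than in AAC (median −0.48), where 33.3% of all genes were lower and 35.5% higher. STB3 and DOT6, which encode repressors of growth genes, fell with rate in AAC by 0.84 ± 0.07 and 1.35 ± 0.09 on the log2 scale (adjusted p = 2.2e-06 and 2.4e-07). The gene of the activator Sfp1 fell as well, with a log2 fold change of −0.82 ± 0.08 (adjusted p = 4.5e-06). FHL1, IFH1, and RAP1 had −0.45 ± 0.08, −0.33 ± 0.09, and −0.26 ± 0.08 (adjusted p = 0.00054, 0.0076, and 0.010). The 1 regulator that rose was HMO1, by 0.89 ± 0.08 (adjusted p = 2.9e-06). The 19 assembly factors and chaperones of the small subunit moved in both directions, with 7 up and 8 down with rate in AAC (median 0.02), shares near the 32.7% and 35.5% of all genes, and 4 higher and 9 lower in MH34 than in AAC at 0.1/h (median −0.24), beside 35.5% and 33.3% of all genes. Among them, KRR1, a factor of early assembly that lies on chromosome III, was higher in MH34 by 1.88 ± 0.11 (adjusted p = 1.6e-07). The part of its chromosome in this was not tested. HRR25, a kinase of late assembly, was lower by 0.96 ± 0.08 (adjusted p = 9.9e-07).

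Over the 12 libraries, 50 of the 56 members had a Pearson r above 0.9 between their log2 CPM and the family median, to which each contributes. Without a share over all genes beside it, this count is not read as a trait of the family alone. The 6 other members were RPS25A (−0.40), RPS27A (0.54), RPS28A (0.55), RPS15 (0.59), RPS14B (0.73), and RPS14A (0.85). Outside the ribosomal protein genes, the 5 genes most like the family median were TIF35 (r = 0.997), ASC1 (0.996), TSC13 (0.995), PYP1 (0.995), and YNR021W (0.994). TIF35 encodes a subunit of the initiation factor eIF3 and TSC13 an enzyme of fatty acid elongation. The 12 points fall into 6 groups of replicates and share the family's separation of AAC and B184 at 0.1/h from the rest, so r is given as a measure of likeness only.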

How the data were processed

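The authors prepared stranded mRNA libraries, mapped paired reads with the nf-core pipeline, and deposited raw counts per gene for 12 libraries. The submitters' processing notes name TopHat2 2.0.12, Cufflinks 2.2.1, and Subread 1.4.6. The strand setting of the counting and how reads with several matches were handled are not given in the sources used here. The assembly is R64, that of the RefSeq annotation used for positions. Counts were tested in edgeR 4.0.16 (R 4.3.3) with TMM scaling and its filter by group, using the quasi-likelihood test (robust) over all 6 groups at once, with Benjamini-Hochberg adjustment over 6044 genes. FPKM was computed from counts, coding length, and library totals. Pair ratios used a pseudocount of 1. Alternatives were DESeq2 1.42.0, other scalings and filters, a replicate block, and leaving out each library. The scripts were tested on simulated data. Python 3.11.15, numpy 2.4.6, pandas 2.3.3, matplotlib 3.10.9, and Biopython 1.88 were used.

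The members, lists, and tests were chosen with earlier results of these data known. Genes were named by rule. These are both RPS14 copies, the 6 pairs ranging most, the 2 members farthest above and below the family median in each comparison with AAC or between rates, the 3 highest and 3 lowest members, the 2 genes with the lowest p in each list, and the 5 genes most like the family. Any other gene was singled out only once its values were known. Results for some members are not reported here. The sporulation and α-cell markers served only to describe the cells. With 2 replicates a group, the standard errors of members' log2 fold changes had medians near 0.1, or 0.15 for the rate dependence.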

Additional observations from a re-analysis of the deposited data

Results flagged for a closer look

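The difference between MH34 and AAC changed with the dilution rate in 50 RPS genes by edgeR's interaction test, with Benjamini-Hochberg adjustment over 6044 genes. Among the genes named here, the log2 fold change at 0.2/h minus that at 0.1/h was −2.57 for RPS25B, −2.31 for RPS24A, −2.27 for RPS21A, −1.65 for RPS29A, −1.62 for RPS14A, −1.07 for RPS9B, −0.90 for RPS14B, −0.64 for RPS26B, and −0.60 for RPS10B. In each of these genes, MH34 exceeded AAC by more at 0.1/h, or was below it only at 0.2/h. Ethanol was added to MH34 and not, as far as the methods say, to AAC at 0.1/h, and its part in these differences cannot be told apart from that of the strain.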

How the results depend on the processing

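In most alternatives, the counts of called RPS genes were within 1.5 times those reported, and 4 of 88 fell outside when the scaling, filter, test, or block was changed. For the rate dependence of B184, 1 gene was called with the DESeq2 Wald test and 1 with library size only, in place of 0. With only the groups compared, 2 were called between B184 and AAC at 0.1/h and 6 at 0.2/h, from fewer libraries. When 1 library was left out, the counts ranged from 49 to 52 (MH34 with AAC at 0.1/h), 3 to 29 (B184 with AAC at 0.1/h), 3 to 8 and 3 to 7 (MH34 and B184 with AAC at 0.2/h), 51 to 54 and 0 to 0 (B184 with MH34, at 0.1/h and then at 0.2/h), 52 to 55, 4 to 51, and 52 to 54 (rates in AAC, MH34, and B184), 48 to 52 and 0 to 8 (rate dependence of MH34 and B184), and, for pairs, 1 to 4 (strains) and 14 to 19 (rates). Reversed signs were all of small values. The value of RPS14A in the rate dependence of B184 became 0.0125 with library size only, and without 1 library it ranged from −0.2174 to 0.1163, above 0 without replicate 2 of AAC or replicate 1 of B184 at 0.1/h. That of RPS28A for the rates in AAC became −0.0021 with library size only and ranged from −0.0215 to 0.3399, below 0 without replicate 2 of AAC at 0.1/h, and that of RPS25A ranged from −0.216 to 0.003, above 0 without replicate 1. For B184 with AAC at 0.1/h, RPS28A ranged from −0.0285 (without replicate 2 of AAC) to 0.3335, and for B184 with MH34 at 0.2/h, RPS14B ranged from −0.0478 to 0.0312 (without replicate 2 of B184). The cause was not tested. Library size only moved the median of all genes to between −0.18 (rates in AAC) and 0.24 (rate dependence of MH34), and the RPS medians moved with it. Replicate numbers did not pair the samples. In 15 pairs of groups, the deviations of same-numbered libraries had correlations of −0.20 to 0.37, with 1 above 0.1. With the replicate block, 3 pairs in place of 5 were called between strains, and no count of genes moved by over 1.5 times.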
